A study of Mus musculus with 6 samples.

Results

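Integrins, laminins and the other core proteins of the basement membrane were followed as a set of 40 genes in mouse tumors grown from Renca, an established BALB/c line of renal carcinoma. The genes were listed by name: 26 integrin chains (18 α and 8 β), 10 laminin chains, both nidogens, perlecan (Hspg2) and agrin (Agrn). All 40 were measured, out of 19938 genes tested. Cells had been injected into the outer layer of the kidney (intrakidney tumors, 3 mice) or under the skin (subcutaneous tumors, another 3 mice), and tumors were taken on day 12. All 6 hosts were BALB/c mice, the strain of origin of the line, with no other treatment named in the labels. Each tumor was its own array of total RNA, and the values are log2 intensities made by RMA, a method that corrects background, normalizes arrays and summarises the probes of a gene. A whole tumor holds Renca cells and host cells, so fewer cells of a type and less RNA per cell cannot be told apart.

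Integrins are membrane receptors built of an α and a β chain that tie cells to the matrix or to other cells, and the pairing sets the ligand. Laminins are cross-shaped trimers of an α, a β and a γ chain that polymerise into the sheet on which epithelium, endothelium and muscle rest. Nidogens link that sheet to collagen IV, and the heparan sulfate proteoglycans perlecan and agrin bind into it. In the kidney these proteins line tubules, glomeruli and capillaries. In skin they anchor the epidermis.

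The arrays had medians of 7.08 to 7.11 over all rows of the value table, and correlations over genes of 0.991 to 0.994 within the intrakidney group, 0.995 to 0.997 within the subcutaneous group and 0.990 to 0.996 between groups. Pax8, a transcription factor of the renal lineage looked at after values were seen, lay between 10.08 and 10.18 in intrakidney tumors and between 10.04 and 10.15 in subcutaneous tumors. Proximal tubule markers set intrakidney tumors 2 and 3 apart from the other arrays. Their mean over 14 measured genes of 15 listed was 6.74, 7.04 and 7.61 in intrakidney tumors 1, 2 and 3, against 6.63 to 6.78 in subcutaneous tumors. For the 12 members with the largest differences, values without intrakidney tumors 2 and 3 are given where they lost a call, changed sign or moved by over 1.5 times.

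A single member, Lamb3, differed past the threshold between the 2 sites. Lamb3, the laminin β3 chain, rose 1.72-fold in intrakidney tumors. With limma, a linear model fitted to every gene, and Benjamini-Hochberg adjustment over all genes tested, 1 of the 40 members was higher at an adjusted p of 0.05, where 0.130% of all genes were higher. None of the 40 was lower, where 0.100% of all genes were lower. At an unadjusted p of 0.05, 7 members were higher and 1 was lower, against 4.72% of all genes higher and 3.71% lower. In 8 members every intrakidney array lay above every subcutaneous array, against 8.41% of all genes, and in 5 members every intrakidney array lay below, against 6.53% of all genes. The other 27 members overlapped between sites. The median log2 fold change of the members was -0.006 with 19 positive and 21 negative, and the median over all genes was -0.006. For 17 members the difference was smaller than 0.1 on the log2 scale.

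**Figure D1:**
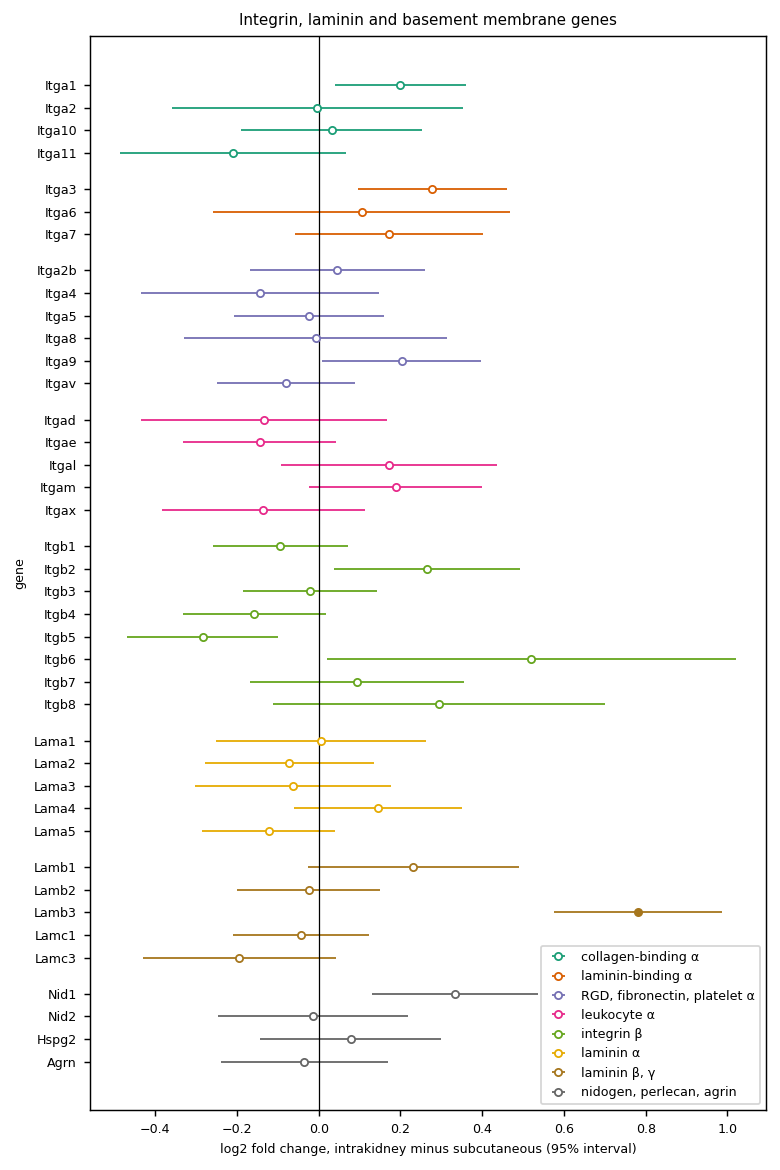
Log2 fold change (horizontal axis, intrakidney minus subcutaneous) of all 40 genes, grouped by role, with the 95% interval of the limma fit as a line. The filled point, Lamb3 at 0.78, is the only gene past the adjusted p of 0.05, and Itgb6 has the widest interval.

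Among the laminin chains, Lamb3 (transcript cluster 10352838) separated the sites by the widest margin. The β3 chain joins the α3 chain in the laminin that anchors stratified epithelia such as epidermis. Lamb3 measured 8.43, 8.34 and 8.44 in intrakidney tumors 1, 2 and 3, against 7.48, 7.64 and 7.75 in subcutaneous tumors 1, 2 and 3. The intrakidney arrays lay within a narrow band, and the lowest of them was above the highest subcutaneous array. Lamb3 averaged 8.40 ± 0.05 in intrakidney tumors and 7.62 ± 0.14 in subcutaneous tumors (SD, n = 3 each), and it rose by 0.78 ± 0.09 on the log2 scale (SE, limma adjusted p = 0.0261, 95% interval 0.58 to 0.99). By p it stood at rank 22 of the 19938 genes.

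The call on Lamb3 rested on all 6 arrays. The difference stayed between 0.71 and 0.84 when any 1 array was left out, but the adjusted p was then 0.0593 to 0.170 and the call was lost each time. Without intrakidney tumors 2 and 3 the difference was 0.81 (limma adjusted p = 0.134). With all rows of the value table tested in place of named genes, the limma adjusted p was 0.121.

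The α chain that pairs with β3 did not pass the threshold. Lama3, the α3 chain, measured 5.96, 6.29 and 6.10 in intrakidney tumors, against 6.30, 6.11 and 6.14 in subcutaneous tumors, and the groups overlapped. Its difference was -0.06 with a 95% interval of -0.30 to 0.18. Markers of keratinocytes, cells that make this trimer in skin, had 0 of 7 members past the adjusted threshold and a mean of 5.73 to 5.99 in intrakidney tumors and 5.81 to 5.99 in subcutaneous tumors. Markers of mesothelium, the lining of body cavities, were positive in 6 of 6, with 0 past the adjusted threshold and a mean of 6.69 to 6.96 in intrakidney tumors, against 6.43 to 6.61 in subcutaneous tumors. Mesothelium was not alone in this. Adipocyte markers were positive in 7 of 7 with 3 past the adjusted threshold, and averaged 7.42 to 7.60 in intrakidney tumors, against 6.30 to 6.50 in subcutaneous tumors. Markers of serosal macrophages (6 of 6, 3 past) and neutrophils (7 of 7, 0 past) were all positive too. The part of any of these cell types in the Lamb3 result was not tested.

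The promoter of Lamb3 is shown beside those of Lamb1 and Lamb2, the other β chain genes of the set, because Lamb3 was the member past the threshold and these 2 β chain genes were not. Each sequence is the 250 bases before the first RefSeq start listed (build GRCm38.p6, + strand), at chr1:193301744-193301993 for Lamb3, chr12:31265043-31265292 for Lamb1 and chr9:108479612-108479861 for Lamb2. Capitals mark matches on either strand to the E-box CANNTG and the GC box GGGCGG.
Lamb3: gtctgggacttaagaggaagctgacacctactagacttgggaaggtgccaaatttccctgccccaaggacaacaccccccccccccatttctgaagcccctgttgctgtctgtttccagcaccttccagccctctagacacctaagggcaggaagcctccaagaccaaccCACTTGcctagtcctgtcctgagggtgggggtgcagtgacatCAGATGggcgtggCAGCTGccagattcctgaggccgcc
Lamb1: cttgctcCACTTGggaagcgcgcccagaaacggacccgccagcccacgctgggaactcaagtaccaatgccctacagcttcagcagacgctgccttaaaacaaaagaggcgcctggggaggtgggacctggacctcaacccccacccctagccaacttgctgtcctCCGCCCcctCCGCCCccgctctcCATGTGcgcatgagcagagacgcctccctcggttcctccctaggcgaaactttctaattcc
Lamb2: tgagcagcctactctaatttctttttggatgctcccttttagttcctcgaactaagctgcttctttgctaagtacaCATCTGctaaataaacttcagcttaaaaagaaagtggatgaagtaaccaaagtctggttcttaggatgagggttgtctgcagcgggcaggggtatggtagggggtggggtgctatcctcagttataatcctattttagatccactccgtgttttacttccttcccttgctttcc
The Lamb3 window held 3 E-box matches and 0 GC boxes, the Lamb1 window 2 E-boxes and 2 GC boxes, and the Lamb2 window 1 E-box and 0 GC boxes. Matches to the AP-1 motif TGANTCA and the TATA box TATAAA were absent from these 3 windows. The motifs did not overlap in these windows. Over all 32851 RefSeq windows of the same length, 66.2% held the E-box letters, 32.7% the GC box, 6.7% the AP-1 motif and 12.4% the TATA box, so an E-box match is common. Of 30 windows matched to 26 members, 22 held an E-box, 13 a GC box, 1 an AP-1 motif and 0 a TATA box. Member windows on 1 chromosome were left out of this count, though not of the count over all windows. The count covers 26 of the 40 members, and Lama3 was among those with no window counted.

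The other β and γ chains build the laminins of most adult tissues. Lamb1, the β1 chain of vessels and of developing epithelia, measured 9.09, 8.90 and 9.02 in intrakidney tumors and 8.93, 8.56 and 8.83 in subcutaneous tumors. Intrakidney tumor 2 overlapped with subcutaneous tumor 1, and the difference of 0.23 ± 0.11 (SE) did not pass (limma adjusted p = 0.651) and was 0.13 without subcutaneous tumor 2. Lamb2, the β2 chain of glomerulus and of nerve-muscle contacts, averaged 9.80 ± 0.05 in intrakidney tumors and 9.82 ± 0.08 in subcutaneous tumors (SD, n = 3 each). The within-array difference of Lamb3 minus Lamb2 was larger in intrakidney tumors by 0.81, and that of Lamb3 minus Lamb1 by 0.55. In both pairs the arrays did not overlap between sites (two-sided exact permutation p = 0.1 each, the smallest that 3 against 3 allows, and 0.1 after adjustment over 6 such pairs, which were chosen after values were seen).

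Lamc1, the γ1 chain found in most laminins, measured 10.34, 10.34 and 10.48 in intrakidney tumors and 10.46, 10.42 and 10.41 in subcutaneous tumors, with a 95% interval of the difference from -0.21 to 0.12. Lamc3, the γ3 chain, lay lower in every intrakidney array: 7.14, 7.47 and 7.44, against 7.54, 7.50 and 7.59 in subcutaneous tumors. Intrakidney tumor 1 was the lowest and the other arrays sat close together. The difference in Lamc3 was -0.19 ± 0.10 (SE, limma adjusted p = 0.690). Leaving out intrakidney tumor 1 gave -0.09 for Lamc3, and leaving out intrakidney tumors 2 and 3 gave -0.40.

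Laminin α chains carry the main binding sites for integrins, and 0 of the 5 passed. Lama5, the α5 chain of mature epithelial and vascular basement membranes, measured 10.08, 10.14 and 10.20 in intrakidney tumors, against 10.25, 10.31 and 10.23 in subcutaneous tumors. All 3 intrakidney arrays were lower, by a small margin, and the difference was -0.12 (limma adjusted p = 0.718). Lama4, the α4 chain of endothelium, measured 8.82, 8.83 and 8.70 in intrakidney tumors, against 8.79, 8.59 and 8.54 in subcutaneous tumors, a difference of 0.14 (limma adjusted p = 0.741). The groups overlapped in Lama4. Lama1, the α1 chain of early embryo and kidney tubule, and Lama2, the α2 chain of muscle and nerve, differed by 0.01 and -0.07.

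Of the linkers and proteoglycans, Nid1 lay farthest apart. Nid1, which encodes nidogen 1, the bridge between laminin and collagen IV, measured 8.30, 8.43 and 8.56 in intrakidney tumors, against 8.15, 8.02 and 8.10 in subcutaneous tumors. The groups did not overlap, with intrakidney tumor 3 the highest. The difference of 0.33 ± 0.09 (SE, 95% interval 0.13 to 0.54) missed the threshold (limma adjusted p = 0.307), and was 0.21 without intrakidney tumors 2 and 3. Nid1 passed when arrays were weighted by quality (0.45, limma adjusted p = 0.0195), a fit that rested mostly on intrakidney tumor 3 (weight 2.57) and subcutaneous tumor 2 (weight 3.55).

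Its relative Nid2 measured 8.76, 8.76 and 8.47 in intrakidney tumors and 8.77, 8.65 and 8.62 in subcutaneous tumors, a difference of -0.01 with a 95% interval of -0.25 to 0.22. Perlecan (Hspg2) differed by 0.08 with an interval of -0.14 to 0.30, and Agrn, which also organises the nerve-muscle contact, by -0.04 with an interval of -0.24 to 0.17. Both overlapped between sites.

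**Figure D2:**
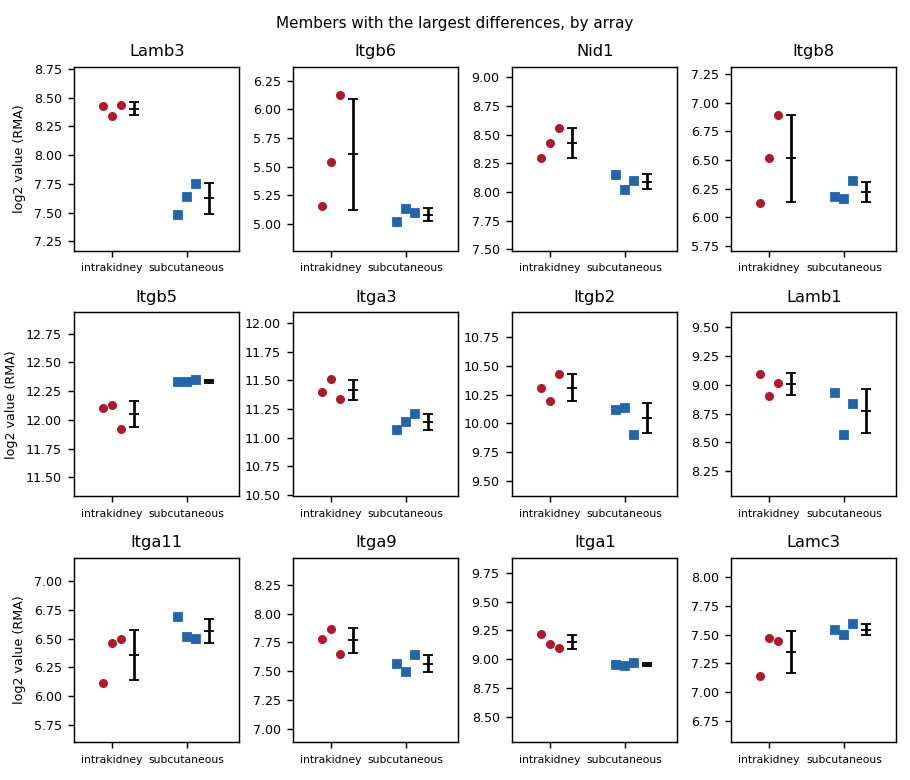
Log2 RMA value (vertical axis, every panel spanning 1.6 log2 units) of the 12 genes with the largest differences, 1 point per tumor, with the group mean and SD beside the points (n = 3 per group). Lamb3 and Nid1 show higher intrakidney arrays, Itgb5 shows lower ones, and the intrakidney points of Itgb6 and Itgb8 are spread.

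Integrins that bind laminin pair α3, α6 or α7 with β1, or α6 with β4. All 3 of these α chains were positive and 0 passed. Itga3, the α3 chain of kidney epithelium and of podocytes, measured 11.40, 11.51 and 11.34 in intrakidney tumors, against 11.07, 11.14 and 11.21 in subcutaneous tumors. The groups did not overlap, and the difference was 0.28 ± 0.08 (SE, 95% interval 0.10 to 0.46, limma adjusted p = 0.363). Itga7, the α7 chain of muscle, measured 9.56, 9.58 and 9.86 in intrakidney tumors, against 9.54, 9.53 and 9.41 in subcutaneous tumors. Intrakidney tumors 1 and 2 were only just above the subcutaneous arrays (difference 0.17, limma adjusted p = 0.722).

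Itga6, the α6 chain of hemidesmosomes and endothelium, was high in intrakidney tumor 1 alone, at 8.35, 7.86 and 7.86 in intrakidney tumors, against 8.10, 7.94 and 7.72 in subcutaneous tumors. The groups overlapped. Its hemidesmosome partner Itgb4 averaged 8.05 ± 0.05 in intrakidney tumors and 8.21 ± 0.09 in subcutaneous tumors (SD, n = 3 each). Every intrakidney array was lower for Itgb4, with a difference of -0.16 ± 0.08 (SE, limma adjusted p = 0.655). The hemidesmosome chain Itgb4 had the opposite sign to Lamb3, a ligand chain of that receptor.

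Itgb1, the β1 chain shared by most matrix-binding integrins, measured 12.24, 12.13 and 12.22 in intrakidney tumors and 12.34, 12.30 and 12.23 in subcutaneous tumors. Those arrays overlapped, and the 95% interval of the difference ran from -0.26 to 0.07. The within-array difference of Itga3 minus Itgb1 was larger in intrakidney tumors by 0.37 (two-sided exact permutation p = 0.1, the smallest possible). It was among the pairs chosen after values were seen, so its p is no separate support.

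Collagen-binding integrins are formed by α1, α2, α10 and α11 with β1. Itga1, the α1 chain of capillary endothelium, smooth muscle and mesenchyme, measured 9.22, 9.13 and 9.10 in intrakidney tumors, against 8.95, 8.94 and 8.97 in subcutaneous tumors. The groups were tight and did not overlap, and the difference was 0.20 ± 0.07 (SE, 95% interval 0.04 to 0.36, limma adjusted p = 0.463). Endothelial markers were positive in 9 of 12, with 1 past the adjusted threshold, and their mean was 8.69 to 8.76 in intrakidney tumors, against 8.44 to 8.57 in subcutaneous tumors. Smooth muscle and pericyte markers were positive in 5 of 8, with 0 past the adjusted threshold. Their mean was 8.56 to 8.68 in intrakidney tumors, against 8.47 to 8.58 in subcutaneous tumors. The part of either cell type in the Itga1 difference was not tested.

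Itga11, the α11 chain of fibroblasts, lay the other way, at 6.11, 6.46 and 6.50 in intrakidney tumors and 6.69, 6.51 and 6.50 in subcutaneous tumors. Intrakidney tumor 3 overlapped with the subcutaneous arrays, and the difference was -0.21 ± 0.12 (SE, limma adjusted p = 0.716). Leaving out intrakidney tumor 1 gave -0.09 for Itga11, and leaving out intrakidney tumors 2 and 3 gave -0.45. Fibroblast markers were lower in 6 of 10, with 0 past the adjusted threshold and means of 8.74 to 9.48 in intrakidney tumors and 9.25 to 9.40 in subcutaneous tumors. Itga2, the α2 chain of platelets and epithelium, and Itga10, the α10 chain of cartilage, differed by -0.004 and 0.03 and overlapped.

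The αv integrins bind the RGD sequence of fibronectin and vitronectin, and some of them activate latent TGF-β. Itgav itself measured 10.12, 10.08 and 10.21 in intrakidney tumors and 10.28, 10.19 and 10.17 in subcutaneous tumors, an overlap. Its β partners went in different directions, with none past the threshold. Itgb5, the β5 chain of a vitronectin receptor, measured 12.10, 12.13 and 11.92 in intrakidney tumors, against 12.33, 12.33 and 12.35 in subcutaneous tumors. The subcutaneous arrays were nearly identical and all intrakidney arrays were lower. The difference in Itgb5 was -0.28 ± 0.08 (SE, 95% interval -0.47 to -0.10, limma adjusted p = 0.360). It passed with array weights (-0.36, limma adjusted p = 0.0357), the fit that rested mostly on intrakidney tumor 3 and subcutaneous tumor 2.

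Itgb6, the β6 chain of an epithelial receptor that activates latent TGF-β, measured 5.16, 5.54 and 6.12 in intrakidney tumors, against 5.02, 5.13 and 5.10 in subcutaneous tumors. Intrakidney tumor 1 was barely above the subcutaneous arrays, and intrakidney tumor 3 was far above. Itgb6 averaged 5.61 ± 0.48 in intrakidney tumors and 5.09 ± 0.06 in subcutaneous tumors (SD, n = 3 each), a difference of 0.52 ± 0.21 (SE, limma adjusted p = 0.576). Leaving out intrakidney tumor 3 gave 0.26 for Itgb6, and leaving out intrakidney tumors 2 and 3 gave 0.07. With array weights the difference was 0.80 (limma adjusted p = 0.0478). That fit rested mostly on subcutaneous tumor 2 and on intrakidney tumor 3, where Itgb6 was highest.

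Itgb8, the β8 chain of the other αv receptor known for activating latent TGF-β, had a like order at 6.13, 6.52 and 6.89 in intrakidney tumors, against 6.18, 6.16 and 6.32 in subcutaneous tumors. Intrakidney tumor 1 was the lowest of the 6 arrays. Itgb8 was dim too, at percentile 31.4 of all genes by mean level. The difference was 0.29 ± 0.17 (SE, limma adjusted p = 0.730), which was 0.48 without intrakidney tumor 1, 0.11 without intrakidney tumor 3 and -0.08 without intrakidney tumors 2 and 3. These 2 genes had the widest range over the intrakidney arrays of all 40 members, 0.96 for Itgb6 and 0.76 for Itgb8, against 0.11 and 0.16 over the subcutaneous arrays.

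Both β chains had the same order over the intrakidney arrays as the proximal tubule markers, of which 12 of 14 were positive and 0 passed the adjusted threshold. Neutrophil markers had that order too, with means of 6.26, 6.45 and 6.91 in intrakidney tumors 1, 2 and 3, against 5.98 to 6.08 in subcutaneous tumors (7 of 7 positive, 0 past the adjusted threshold). So did the means of 3 further marker lists, each with 0 past the adjusted threshold. Over intrakidney tumors 1, 2 and 3, loop, distal tubule and collecting duct markers averaged 6.33, 6.74 and 6.998, against 6.42 to 6.65 in subcutaneous tumors (6 of 11 positive). Mesothelium markers averaged 6.69, 6.87 and 6.96 in intrakidney tumors, against 6.43 to 6.61 in subcutaneous tumors, and platelet markers 6.74, 6.85 and 7.02 in intrakidney tumors, against 6.81 to 6.83 in subcutaneous tumors (3 of 4 positive). The mean of 17 integrin ligands outside the basement membrane had the same order, at 8.53, 8.70 and 9.34, against 8.675 to 8.83 in subcutaneous tumors (8 of 17 positive). Among these ligands, Fgg measured 4.62, 4.73 and 8.70 in intrakidney tumors, against 4.63 to 4.68 in subcutaneous tumors. Fgb measured 5.56, 6.01 and 8.77, against 5.42 to 5.99, and Vtn 6.25, 6.56 and 8.85, against 5.82 to 6.45. The part of any of these cell types or ligands in the values of Itgb6 and Itgb8 was not tested. Itgb3, the β3 integrin chain of platelets, osteoclasts and sprouting vessels, differed by -0.02 with a 95% interval of -0.18 to 0.14.

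**Figure D3:**
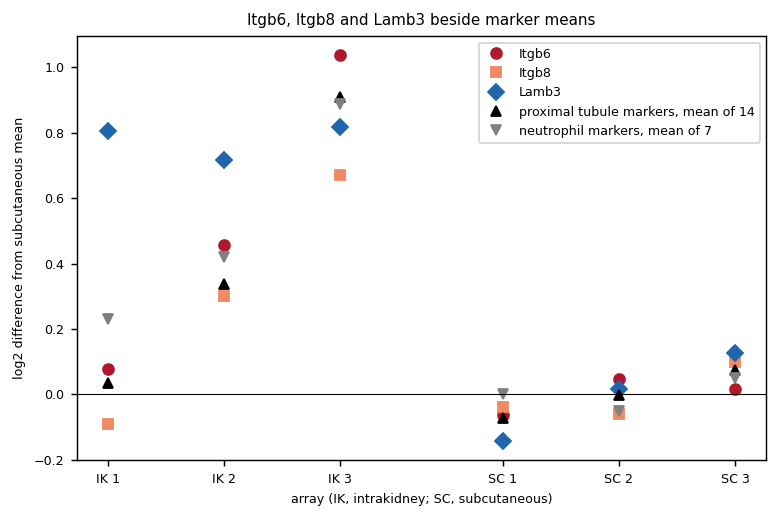
Log2 difference from the subcutaneous mean (vertical axis) on each of the 6 arrays (horizontal axis) for Itgb6, Itgb8 and Lamb3 and for the mean of the proximal tubule and neutrophil markers. Itgb6, Itgb8 and both marker means are lowest of the intrakidney arrays in tumor 1 and highest in tumor 3, while Lamb3 is high in all 3 intrakidney tumors.

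Of the remaining fibronectin, vascular and platelet receptors, only Itga9 kept the sites apart. Itga9, the α9 chain that binds tenascin C and is used by lymphatic valves, measured 7.78, 7.87 and 7.65 in intrakidney tumors, against 7.56, 7.49 and 7.64 in subcutaneous tumors. The gap between intrakidney tumor 3 and subcutaneous tumor 3 was small, and the difference was 0.20 ± 0.08 (SE, limma adjusted p = 0.573). Itga5, the α5 chain of the main fibronectin receptor, measured 9.29, 9.18 and 9.40 in intrakidney tumors and 9.31, 9.35 and 9.27 in subcutaneous tumors, with a 95% interval of -0.21 to 0.16. Itga8, the α8 chain of mesangium and of kidney development, and Itga2b, the αIIb chain of platelets, differed by -0.01 and 0.05, and the groups overlapped in both. Itga4, the α4 chain that binds VCAM-1, differed by -0.14, with intrakidney tumor 1 at 8.67 above intrakidney tumors 2 and 3 at 8.26 and 8.38, and 8.73, 8.44 and 8.58 in subcutaneous tumors.

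Leukocyte integrins pair αL, αM, αX or αD with β2, and αE or α4 with β7. Itgb2, the shared β2 chain, measured 10.31, 10.19 and 10.43 in intrakidney tumors, against 10.12, 10.13 and 9.90 in subcutaneous tumors. The groups did not overlap, and the difference was 0.27 ± 0.10 (SE, 95% interval 0.04 to 0.49, limma adjusted p = 0.498). Itgam, the αM chain of neutrophils, monocytes and macrophages, measured 10.26, 10.06 and 10.33 in intrakidney tumors and 10.11, 10.00 and 9.98 in subcutaneous tumors. The groups overlapped at intrakidney tumor 2, with a difference of 0.19 (limma adjusted p = 0.657). Itgal, the αL chain of lymphocytes, was highest in intrakidney tumor 1, at 8.40, 8.14 and 7.98 in intrakidney tumors and 8.06, 7.92 and 8.03 in subcutaneous tumors.

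Itgax and Itgad, the αX chain of dendritic cells and macrophages and the αD chain of macrophages, had negative differences of -0.14 and -0.13 with overlapping arrays. A dimmer row of the array for Itgad gave overlapping groups as well. The within-array difference of Itgb2 minus Itgax was larger in intrakidney tumors by 0.40 (two-sided exact permutation p = 0.1, the smallest possible). This pair too was chosen after values were seen, so its p is no separate support. Macrophage markers were positive in 8 of 11, with 0 past the adjusted threshold and a mean of 10.24 to 10.48 in intrakidney tumors, against 10.14 to 10.19 in subcutaneous tumors. Markers of serosal macrophages, which live in body cavities, were positive in 6 of 6 with 3 past the adjusted threshold, and their mean was 6.91 to 7.10 in intrakidney tumors, against 6.10 to 6.22 in subcutaneous tumors. Neutrophil markers were positive in 7 of 7 with 0 past the adjusted threshold, and in 5 of the 7 every intrakidney array was the higher (means of 6.26 to 6.91 in intrakidney tumors, against 5.98 to 6.08 in subcutaneous tumors). Dendritic cell markers were positive in 5 of 6 with 0 past the adjusted threshold, with a mean of 6.91 to 7.20 in intrakidney tumors and 6.96 to 7.09 in subcutaneous tumors. The part of these cells in the β2 integrin values was not tested.

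Itgae, the αE chain by which T cells and some dendritic cells hold on to E-cadherin of epithelium, lay lower in every intrakidney array: 7.10, 6.94 and 7.06, against 7.27, 7.15 and 7.11 in subcutaneous tumors. The nearest arrays almost touched, and the difference of -0.14 ± 0.08 (SE) did not pass (limma adjusted p = 0.710). Its partner Itgb7 measured 7.89, 7.46 and 7.59 in intrakidney tumors and 7.57, 7.57 and 7.53 in subcutaneous tumors, with intrakidney tumor 1 alone raised. T cell markers were negative in 9 of 9 with 0 past the adjusted threshold, and their mean was 6.73 to 7.06 in intrakidney tumors, against 7.13 to 7.35 in subcutaneous tumors. Cdh1, which encodes E-cadherin, was lower in every intrakidney array as well (difference -0.52 ± 0.11 SE, limma adjusted p = 0.209). The part of T cells or of E-cadherin in the Itgae values was not tested.

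**Figure D4:**
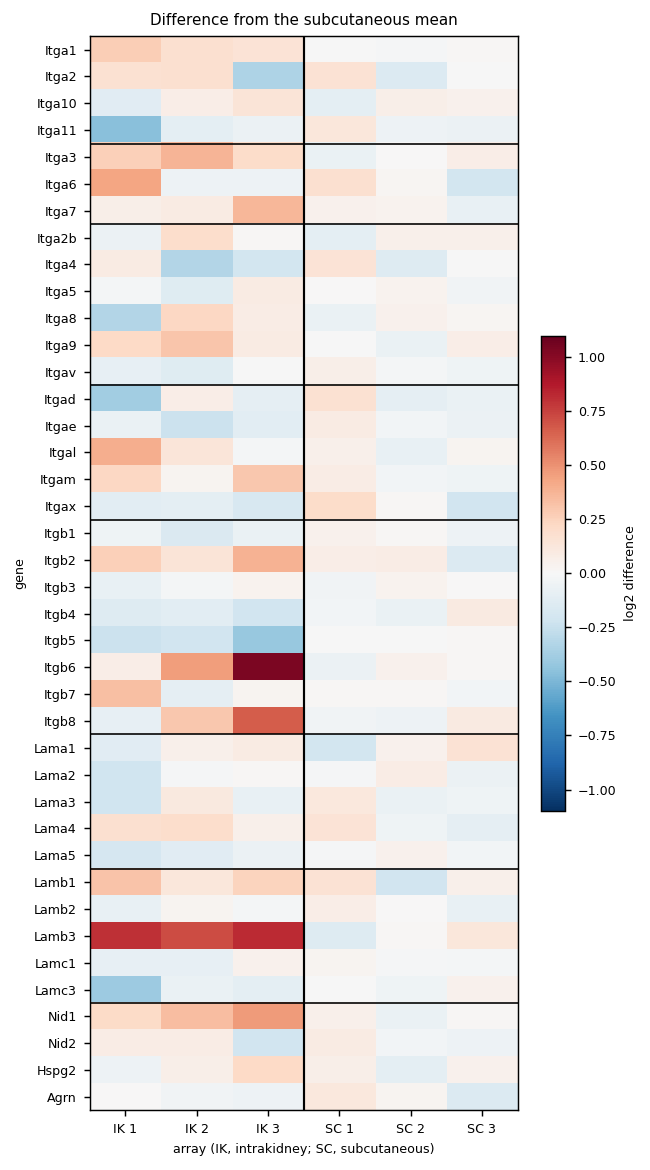
Difference of each array (columns, IK for intrakidney and SC for subcutaneous) from the subcutaneous mean for all 40 genes (rows, grouped by role as in the text), in log2 units by colour. Lamb3 is raised in all 3 intrakidney arrays, Itgb6 and Itgb8 mainly in intrakidney tumor 3, and Itga6, Itgal and Itgb7 mainly in intrakidney tumor 1.

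The range over 3 arrays was wider in intrakidney than in subcutaneous tumors for 31 of the 40 members (77.5%), with medians of 0.24 in intrakidney tumors and 0.16 in subcutaneous tumors. Over all genes tested it was wider in intrakidney tumors for 59.2%, with medians of 0.22 in intrakidney tumors and 0.19 in subcutaneous tumors.

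Among other genes of the same pathway, only integrin ligands outside the basement membrane gave calls. Of 22 further basement membrane and laminin-associated genes measured, 0 passed the adjusted threshold, 10 were positive and 12 negative, and the median log2 fold change was -0.02. Nearest to it were 2 collagen IV chains of the glomerular filter. Col4a4, the α4 chain of collagen IV, measured 8.13, 8.35 and 8.21 in intrakidney tumors, against 8.82, 8.86 and 8.73 in subcutaneous tumors (difference -0.58 ± 0.08 SE, limma adjusted p = 0.0587), and Col4a3 differed by -0.36 (limma adjusted p = 0.204). Fbln1, which encodes the matrix protein fibulin 1, and Dag1, which encodes the laminin receptor dystroglycan, differed by -0.29 each (limma adjusted p = 0.312 and 0.404). All 4 genes were lower in every intrakidney array.

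Of 17 integrin ligands outside the basement membrane, 2 fell past the adjusted threshold, where 0.100% of all genes were lower. None of the 17 rose past it, where 0.130% of all genes were higher, and the median log2 fold change was -0.003. The list was chosen with earlier results of these data known, so its share of calls was not tested. Tnc, encoding tenascin C, a ligand of α9 and αv integrins, measured 9.33, 9.31 and 9.25 in intrakidney tumors, against 10.22, 10.20 and 10.22 in subcutaneous tumors (limma adjusted p = 0.00637). Postn, encoding periostin, which binds αv integrins, measured 8.56, 8.27 and 9.24 in intrakidney tumors, against 10.44, 10.36 and 10.25 in subcutaneous tumors (limma adjusted p = 0.0460). Both ligands were lower on every intrakidney array. Fn1, encoding fibronectin, differed by 0.98 (limma adjusted p = 0.0953) and Icam1, a ligand of β2 integrins, by 0.41 (limma adjusted p = 0.170), with every intrakidney array higher in both.

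Of 23 measured genes for integrin activators, adaptors and signalling proteins, 0 passed the adjusted threshold, 15 were positive and 8 negative, and the median was 0.04. The smallest p belonged to Fermt1, the kindlin of epithelial cells, with 5.07, 5.60 and 5.32 in intrakidney tumors, against 4.95, 4.98 and 4.70 in subcutaneous tumors (difference 0.45, limma adjusted p = 0.425). It was followed by Itgb1bp1, whose product binds the β1 tail (0.21), Fermt3, the kindlin of blood cells (0.22), and Apbb1ip, which links Rap1 to talin (0.16), with a limma adjusted p of 0.591 to 0.700.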

How the data were processed

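The authors deposited log2 values, and the submitters' processing notes name RMA and affy as the tools. Their versions, settings and genome build are not given in the sources used here. The log2 scale was inferred from the range of the values (2.31 to 15.07), and whether all 6 arrays were normalized together was not stated. Of 35512 rows, 21789 were paired by the platform annotation with exactly 1 gene, and for 999 genes with several rows the row with the highest mean over 6 arrays was used, which left 19938 genes. Of 211 entries in pathway and marker lists 198 were measured, 3 through a synonym.

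The comparison used lmFit and eBayes of limma 3.58.1 (R 4.3.3, two-sided), with Benjamini-Hochberg adjustment over all genes and a threshold of 0.05. Log2 fold changes are intrakidney minus subcutaneous. No filter was set. Probe brightness differs between genes, so levels of different genes were not compared, apart from the percentiles used to call genes dim. Precision is limited by having 3 arrays per group.

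The members and lists were chosen with earlier results of these data known. Per-array values were to be given for members with an unadjusted p under 0.05, for the 12 largest differences and for their partner chains, and up to 4 genes per pathway list were named by p. Cdh1 was named besides, as the ligand of Itgae. On simulated data (10 simulations of this comparison over 19938 genes, 200 changed) the share of changed genes called was 58.5% at a log2 change of 0.5 and 98.5% at 1, and 4.98% of calls were false. The changes of 0.5, 1 and 2 were mixed in each simulation, and noise was normal, independent and of equal spread in both groups. The real arrays spread more in intrakidney tumors, so these shares may not hold for them. Promoter windows are from RefSeq (GRCm38.p6).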

Additional observations from a re-analysis of the deposited data

How the results depend on the processing

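The alternatives were 17 in number. The median of the members stayed within 0.1 of its value in all settings that gave it. Genes higher and lower in intrakidney tumors (26 and 20) numbered 63 and 38 without dim genes, 94 and 44 with a robust prior that follows intensity, 373 and 251 with array weights, 17 and 13 without intrakidney tumors 2 and 3, and 2 and 3 at an adjusted p of 0.01. With an offset of 16 the genes higher numbered 45. When every row was tested they numbered 0 and 0. Leaving out 1 array at a time gave 1 to 19 genes higher and 1 to 17 lower. The 1 member higher, Lamb3, became 3 with array weights (Nid1 and Itgb6 added, and Itgb5 as 1 member lower), and 0 with every row tested, without each array in turn, without intrakidney tumors 2 and 3, and at 0.01. The cause was not tested. The difference in Lamb3 was 0.71 to 0.84 in every setting, with an unadjusted p of at most 0.000695. Of the 12 members given in full, Itgb8 alone changed sign, to -0.084 without intrakidney tumors 2 and 3, and 18 of the 40 members changed sign in at least 1 setting. The filter on dim genes, those under percentile 40 of mean level, left 32 of the 40 members. It took out Itgb6, Itgb8, Itga8, Itga11, Itgad, Lama1, Lama2 and Lama3, so that setting gave no values for them.

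The replicate number as a block gave 0 genes higher, 0 lower and 0 members (Lamb3 adjusted p = 0.106). Same-numbered arrays had correlations of their deviations of 0.374, -0.159 and 0.104, so the numbers were not taken as pairs.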
